A study of Mus musculus with 5 samples.

Results

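The genes followed were Nos2, the inducible nitric oxide synthase, and 8 genes of arginine, ornithine, methylarginine and cofactor metabolism. They were measured in mouse hepatobiliary organoids cultured without and with liver endothelial cells. The 9 genes were taken from a list of symbols for nitric oxide synthesis and arginine metabolism, and all 9 were found, among 52029 genes of the table. The list was chosen by gene name, with the differences in counts between co-cultured and lone organoids in these same libraries already known. Nos2, the arginase gene Arg2, the cofactor enzyme gene Gch1 and the polyamine enzyme gene Odc1 were lower in each of 3 co-culture libraries than in both libraries of organoids alone. In the fit of M9 and M10 against M11 and M12, the libraries that share a table, the gap was 9.89-fold for Nos2, 2.6-fold for Arg2 and 1.5-fold for Gch1 and Odc1. Ddah1, which breaks down methylated arginines, was higher in each. Ass1, Asl, Arg1 and Ddah2 overlapped between the groups. Of 14288 genes, 17.1% lay below both libraries alone in all 3 co-culture libraries, and 15.1% above. The fit called Nos2 only, and not Arg2, Gch1, Odc1 or Ddah1.

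Nitric oxide synthases turn arginine and oxygen into nitric oxide and citrulline and need tetrahydrobiopterin, whose synthesis starts with the enzyme encoded by Gch1. Citrulline is turned back into arginine by the products of Ass1 and Asl, arginases (Arg1 and Arg2) split arginine into ornithine and urea, and Odc1 encodes the enzyme that takes ornithine into the polyamines. Asymmetric methylarginines, released from proteins, inhibit the synthases and are degraded by the Ddah enzymes. In liver, Nos2 is known for its induction by inflammatory cytokines, and the urea cycle, of which Ass1, Asl and Arg1 are part, for its place in hepatocytes.

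The organoids came from wild-type mice, whose primary liver stem/progenitor cells were cultured in the same medium in every group, with EGF, heparin, nicotinamide, the kinase inhibitor Y-27632, knock-out serum replacement and an endothelial growth supplement, and RNA was taken on day 10. There were 2 samples of organoids alone, labelled P1 in their titles, and 3 of organoids co-cultured with liver endothelial cells, labelled P8, which are read here as passages 1 and 8. Passage and co-culture therefore cannot be told apart in any value given here. The sources used here do not give the strain, sex or age of the mice. Nor do they tell whether a group's libraries are from separate cultures, and p-values therefore reflect no more than how far these libraries vary, which may be technical variation.

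Libraries M11 and M12 (alone) and M9 and M10 (co-culture) share one table and held 26466739 to 35878241 counts. A separate table with another gene annotation holds the third co-culture library (58853737 counts). Its values below are scaled jointly with the others, carry no error and have no test. The pairs M11 and M12, and M9 and M10, differed by more than counting noise (chi-square per degree of freedom of 33.3 and 93.1). All 8 markers of biliary and progenitor epithelium, among them Epcam and Krt19, were above 3 counts in every library, with summed levels of 7370 to 11294 CPM (library-size-scaled counts). Of these 8, edgeR called 3 higher in M9 and M10, Krt19, Krt7 and Prom1, and 0 lower. Krt19 was at 1662 and 2155 CPM alone, against 4272, 4181 and 1251 in co-culture, the third library being below both libraries alone. Krt7 was likewise below them in the third library (801 CPM against 1340 and 1448), whereas Prom1 was above them there (921 against 354 and 399). Spp1, not called, was at 2020 and 2739 CPM alone, against 1103, 645 and 1982 in co-culture. Liver endothelial markers were nearly absent, in the co-cultures too: Pecam1 had 1 to 10 counts and Cdh5 2 to 19 in the 5 libraries, Clec4g was at 0, and the 12 markers summed to 8.19 and 8.41 CPM alone and 6.93 to 10.6 in co-culture, mostly from Egfl7.

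Nos2 (ENSMUSG00000020826, chromosome 11, 78920787 to 78960254, plus strand, GRCm38) encodes the synthase that makes nitric oxide in large amounts once it is induced. It stood at 214 CPM in M11 and 175 in M12, whereas the co-culture libraries M9, M10 and the third had 21.2, 18.2 and 15.1. The groups were far apart, and the 3 co-culture libraries lay close together although they came from 2 tables. The deposited counts behind these levels were 5781 and 5090 alone and 715, 626 and 918 in co-culture. Over the 4 libraries that share a table, the mean of these levels was 195 ± 27.4 CPM alone and 19.7 ± 2.17 in co-culture (SD, n = 2 in each group). The edgeR fit of these 4 libraries gave a log2 fold change of -3.31 ± 0.19 (SE). The third library minus the mean of the organoids alone was -3.68 on the log2 scale. Nos2 is on this list because its difference between the groups was known, so these values, and the calls given below for the 9 genes, are a description and support nothing. In bulk RNA, fewer cells that express a gene and less of its RNA per cell cannot be told apart.

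Of the 9 genes, 8 passed the low-count filter, and 1 of these, Nos2, was called at an adjusted p under 0.05, against 2.24% of 15899 genes called in either direction and 1.25% called lower. With this contrast in view when the list was made, nothing is read from that count. Nos2 was called in 11 of 12 alternative fits, with log2 fold changes from -3.44 to -3.15. It was called by DESeq2 (7.86% of all genes called), limma-voom (1.79%), without a low-count filter (4.92%), without M9 (15.7%) and without M10 (6.68%), among others. The call was lost without M12, where the change was -3.44 and edgeR called 0% of all genes (0 genes; 1438 at an unadjusted p under 0.05; that design was run with edgeR only). With all 5 libraries fitted together Nos2 was 1 of 2 genes called, or 0.0136% of 14708.

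**Figure D1:**
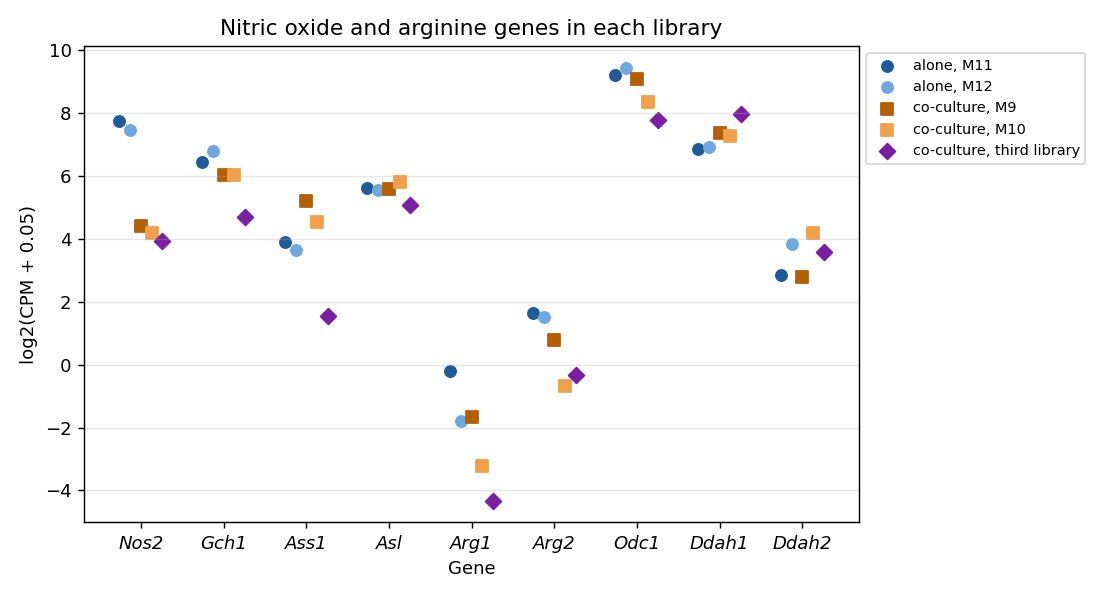
Level of each of the 9 genes in each library, as log2(CPM + 0.05), with circles for organoids alone, squares for co-culture libraries M9 and M10 and diamonds for the third co-culture library. The 3 co-culture points of Nos2 (15.1 to 21.2 CPM) sit together far below its 2 points for organoids alone (175 and 214 CPM).

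Some markers of other cell types were also lower in co-culture beside Nos2. Of the defining markers of macrophages, a classical source of inducible synthase, Adgre1 and Clec4f were at 0 in all 5 libraries and Ptprc had 0 to 8 counts. The sum of the 12 macrophage markers was 41.7 and 47.3 CPM alone and 63.1 to 83.3 in co-culture, led by Csf1r and, in M9, Mrc1 (25.9 CPM), with 7 and 4 markers above 3 counts alone and 4 to 6 in co-culture. Of this list 1 gene fell, the lysozyme gene Lyz2, at 8.89 and 2.21 CPM alone against 0.119, 0.0581 and 0 in co-culture. The 12 mesenchymal markers summed to 37.2 and 110 CPM alone and 5.83 to 10.4 in co-culture, with 11 and 10 of them above 3 counts alone and 5 to 10 in co-culture, and 2 of them fell, Col3a1 and Rgs5. The 8 neutrophil markers summed to 208 and 365 CPM alone and 1.12 to 88.6 in co-culture, nearly all from Ltf and S100a9, which epithelia also express; Camp was at 0 in all 5 libraries and Ly6g had at most 3 counts. Ltf fell in M9 and M10, the only gene of that list called by edgeR. The part of macrophage, mesenchymal or neutrophil RNA in the Nos2 values was not tested.

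Gch1 (ENSMUSG00000037580, chromosome 14, 47153895 to 47189413, minus strand) encodes GTP cyclohydrolase, the first enzyme of tetrahydrobiopterin synthesis. It was at 86.4 CPM in M11 and 111 in M12, against 65.7 in M9 and 65.8 in M10, with 25.8 in the third library. All 3 co-culture libraries were below both libraries alone, and the third was far below M9 and M10. The fit gave -0.59 ± 0.18 (log2, SE), which was not called (-0.91 to -0.39 over the 12 alternatives), and the third library was at -1.92. The 250 bases before the start of Gch1 and the 233 before that of Ddah1 are shown because these genes lay on opposite sides of the organoids alone in every co-culture library; both come from RefSeq (GRCm38.p6), whose promoter table held 5 of the 9 genes. The Gch1 window is chr14:47189414-47189663 on the minus strand, and the Ddah1 window chr3:145758442-145758674 on the plus strand. Capitals mark matches on either strand to 6 motifs, namely the TATA-box letters TATAAA, the CCAAT box, the GC-box letters GGGCGG, the E-box letters CACGTG, the cyclic AMP element TGACGTCA, and the NF-kB consensus.

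Gch1: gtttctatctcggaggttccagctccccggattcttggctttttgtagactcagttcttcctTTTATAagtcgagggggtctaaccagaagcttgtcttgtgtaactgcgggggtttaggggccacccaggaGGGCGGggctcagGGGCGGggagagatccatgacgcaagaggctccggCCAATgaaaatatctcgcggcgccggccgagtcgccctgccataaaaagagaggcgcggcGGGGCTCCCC
Ddah1: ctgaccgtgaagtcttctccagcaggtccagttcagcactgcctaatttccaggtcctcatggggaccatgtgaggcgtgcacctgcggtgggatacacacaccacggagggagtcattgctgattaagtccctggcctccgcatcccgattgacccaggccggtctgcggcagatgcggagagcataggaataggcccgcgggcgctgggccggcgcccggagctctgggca

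The Gch1 window held 1 match to TATAAA (188 bases before the start, on the opposite strand), 2 to GGGCGG (at 118 and 105), 1 to CCAAT (at 70) and 1 to the NF-kB consensus (at 10), with no 2 of them overlapping. Of 32851 promoter windows of 250 bases, 12.4% held TATAAA, 32.7% GGGCGG, 33.8% CCAAT and 3.9% the NF-kB consensus. The Ddah1 window held none of the 6 motifs. Odc1, also lower in every co-culture library and held by the promoter table, could have been shown beside Ddah1 for the same reason. Its 250 bases before the RefSeq start held 4 matches to GGGCGG and none to the other motifs. Only 171 of these bases lie before the gene as annotated in GENCODE. The match 15 bases before the RefSeq start lies outside those 171. Matches describe letters and are not binding sites.

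None of the 7 other genes of tetrahydrobiopterin synthesis and recycling passed edgeR's test (0 at an unadjusted p under 0.05; DESeq2 0, limma-voom 0), with a median log2 fold change of -0.08 against 0.00 over all genes tested. The most abundant were Spr, which completes the cofactor, at -0.08 ± 0.18 (adjusted p = 0.868, edgeR), and Pcbd1, which helps to recycle it, at 0.26 ± 0.15 (adjusted p = 0.462). The other synthases were barely present: the neuronal Nos1 had 5 to 8 counts in the 4 libraries and 0 in the third, and the endothelial Nos3 had 2.17 to 15.02 and 21. Of 11 genes of the other synthases and of cyclic GMP signalling, 6 were tested and edgeR called 0 genes (1 at an unadjusted p under 0.05; DESeq2 1, limma-voom 0). Nosip, a synthase-interacting protein, was at 0.15 ± 0.18 (adjusted p = 0.747). Prkg2, a cyclic GMP-dependent kinase, was at 11.6 and 15.2 CPM alone, against 59.7, 26.9 and 21.3 in co-culture, higher in all 3, with 1.69 ± 0.41 (adjusted p = 0.11); DESeq2 called it, and so did edgeR without a low-count filter (1.70), without M9 (1.0) and without M10 (2.17).

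Ass1 and Asl rebuild arginine from citrulline. Ass1 (ENSMUSG00000076441, chromosome 2, 31470207 to 31520672, plus strand), which joins citrulline to aspartate, was at 15 and 12.5 CPM alone, at 36.4 in M9 and 23.0 in M10, and at 2.86 in the third library. M9 and M10 were above both libraries alone and the third was below both, so the co-culture libraries lay on both sides. The fitted change was 1.11 ± 0.29, not called, and the third library was at -2.24. DESeq2 called it (1.12), as did edgeR without a low-count filter (1.12) and without M10 (1.42). The deposited counts of Ass1, Arg2 and Odc1 were not whole, so reads shared with other genes may enter them. Asl (ENSMUSG00000025533, chromosome 5, 130011258 to 130029247, minus strand), which releases arginine, was at 48.7 and 46.4 CPM alone, against 47.7, 55.7 and 33.9 in co-culture. Its groups overlapped, with a fitted change of 0.12 ± 0.16 and the third library at -0.48.

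The arginases were the least abundant of the 9 genes. Arg1 (ENSMUSG00000019987, chromosome 10, 24915221 to 24927484, minus strand), the cytosolic arginase of the urea cycle, had 22 and 7 counts in M11 and M12, 9 and 2 in M9 and M10, and 0 in the third library. It did not pass the filter. Organoids alone had 3.3 times the counts per total of M9 and M10 (29 against 11; exact binomial 95% interval 1.6 to 7.33, counting error only), but M12 and M9 were nearly equal. Against a floor of 3 counts the third library was at least 10.2-fold lower than the organoids alone, a bound that M11 carries: it was at least 16.3-fold against M11 and 4.7-fold against M12. Arg2 (ENSMUSG00000021125, chromosome 12, 79130777 to 79156301, plus strand), the mitochondrial arginase, was at 3.08 and 2.79 CPM alone, against 1.66, 0.581 and 0.739 in co-culture. All 3 co-culture libraries were lower, and M9 and M10 differed from each other by 1.44 log2 units. The fit gave -1.38 ± 0.60, not called, moving to -2.33 without M9, where it was called, and to -0.80 without M10. The third library was at -1.91. On the opposite strand, exons of Arg2 share 285 bases with those of Vti1b, which had 1662.75 to 2640.96 counts in the 4 libraries. The libraries were stranded, but no source used here tells whether the counting used strand. If it did not, reads of the 2 genes cannot be told apart there.

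Urea cycle enzymes outside the 9 genes were barely counted. Cps1, which starts the cycle, had 0 or 1 count in each library, and Otc had 0 in all 5. The summed hepatocyte markers were 463 and 472 CPM alone, and 234, 413 and 758 in M9, M10 and the third library, most of it Apob, and Alb was lower in M9 (0.149 CPM) and M10 (0.261) and higher in the third library (63.2) than in the organoids alone (16.4 and 50.7). Of the 7 genes of the urea cycle, creatine and agmatine list, 3 were tested and edgeR called 0 genes (1 at an unadjusted p under 0.05; DESeq2 0, limma-voom 0). The most abundant were Azin2, an antizyme inhibitor, at -0.66 ± 0.36 (adjusted p = 0.428), and Gatm, which makes a creatine precursor from arginine, at 0.52 ± 0.64 (adjusted p = 0.748).

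**Figure D2:**
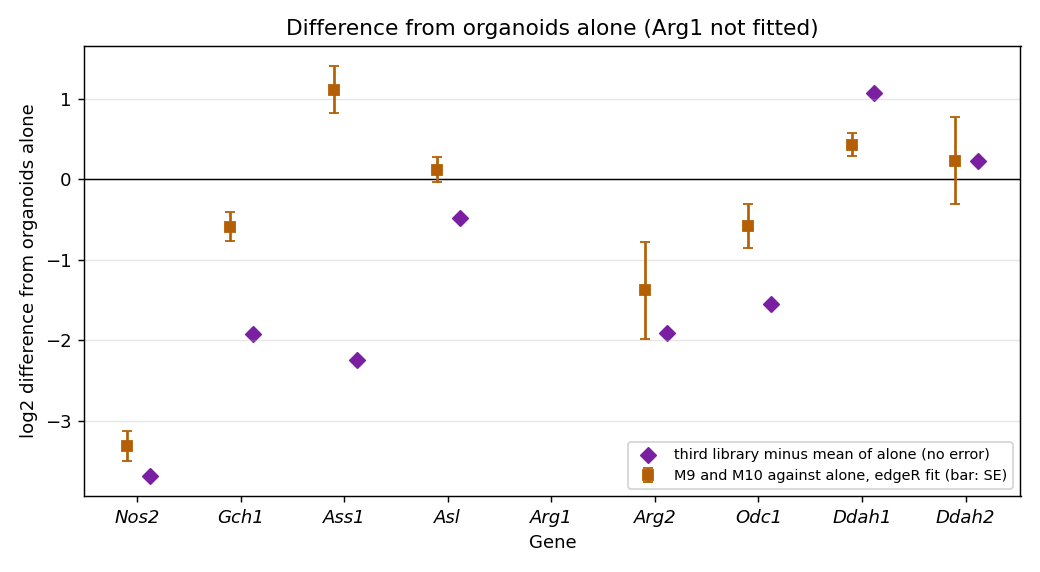
Log2 difference from organoids alone for each gene: squares are the edgeR fit of M9 and M10 against M11 and M12 with its standard error, and diamonds the third co-culture library minus the mean of M11 and M12, which has no error. Of the 8 genes plotted Nos2 lies lowest by both (-3.31 and -3.68), and Ass1 has values of opposite sign (1.11 and -2.24). Arg1 was not fitted and is not plotted, since with 0 counts its third-library difference depends on the prior count (-3.23 with 2 and -5.09 with 0.5).

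Odc1 (ENSMUSG00000011179, chromosome 12, 17544794 to 17551505, plus strand) encodes ornithine decarboxylase, the entry enzyme of polyamine synthesis. It was at 596 and 696 CPM alone, against 538 in M9 and 324 in M10, with 220 in the third library. The co-culture libraries were all lower, M9 only slightly so. The fit gave -0.58 ± 0.27, not called, moving to -0.25 without M10 and to -1.0 without M9, where it was called. The third library was at -1.55. Of 15 polyamine genes tested, edgeR called 0 genes (3 at an unadjusted p under 0.05; DESeq2 1, Paox, higher; limma-voom 0), with a median of -0.02. Eif5a, the translation factor that is modified with spermidine, was at -0.01 ± 0.17 (adjusted p = 0.983), and Oaz1, an antizyme that targets ornithine decarboxylase for degradation, at 0.08 ± 0.14 (adjusted p = 0.825). Both were lower in the third library (-0.98 and -1.44), where the median of the list was -0.69. Without M9 edgeR called 4 polyamine genes lower, Amd1, Mtap, Sat1 and Srm, in a fit that called 15.7% of all genes. Amd1 has a close copy, Amd2, between which reads may be split.

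Ornithine can also become proline. Of 7 genes tested for ornithine and proline, which include genes of proline breakdown, edgeR called 0 genes, with a median of 0.31. At an unadjusted p under 0.05 there was 1 by edgeR, and DESeq2 and limma-voom called 0. Oat and Pycr1, of this list, were at 0.58 and 1.27 and not called in the fit of 4 libraries. Without M10 edgeR called Oat higher, and without M9 it called Pycr1 higher. Aldh18a1, which makes the proline precursor from glutamate, was at 75.9 and 70.7 CPM alone, against 64.9 in M9 and 157 in M10, with 143 in the third library. Its fitted change was 0.59 ± 0.39 (adjusted p = 0.515), and without M9, where 15.7% of all genes were called, edgeR called it (1.10, adjusted p = 0.00157). Aldh4a1, of proline breakdown, was at -0.40 ± 0.17 (adjusted p = 0.291).

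The Ddah genes encode the enzymes that hydrolyse methylated arginines. Ddah1 (ENSMUSG00000028194, chromosome 3, 145758675 to 145894277, plus strand) was at 115 and 121 CPM alone, 164 in M9 and 153 in M10, with 248 in the third library. It was the only one of the 9 genes above both libraries alone in all 3 co-culture libraries. The fit gave 0.43 ± 0.14, not called in any of the 13 fits, and the third library was at 1.07. Ddah2 (ENSMUSG00000007039, chromosome 17, 35059035 to 35062095, plus strand) was at 7.08 and 14.2 CPM alone, against 6.86, 18.2 and 11.8 in co-culture. Libraries of the same group differed by 1.0 (M12 above M11) and 1.40 (M10 above M9) log2 units, more than the fitted change of 0.23 ± 0.54. That change turned to -0.62 without M10 and -0.18 without M11, and was 0.82 without M12 and 0.77 without M9. Of 8 genes tested for arginine methylation and methylarginine breakdown, edgeR called 0 genes (0 at an unadjusted p under 0.05; DESeq2 0, limma-voom 0), with a median of -0.02. Prmt1, the main asymmetric arginine methyltransferase, was at -0.24 ± 0.15 (adjusted p = 0.498) and Prmt5, the main symmetric one, at -0.04 ± 0.16 (adjusted p = 0.942).

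Over the 9 genes, 4 were below both libraries alone without overlap in all 3 co-culture libraries, 1 was above and 4 overlapped. For comparison, 17.1% of 14288 genes lay below in this way and 15.1% above. Of the 8 genes that passed the filter, 5 were at least 1 log2 unit lower in the third library and 1 at least 1 higher, where 17.6% and 14.4% of 14708 genes were. M11 and M12 enter both comparisons, which are therefore not independent.

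**Figure D3:**
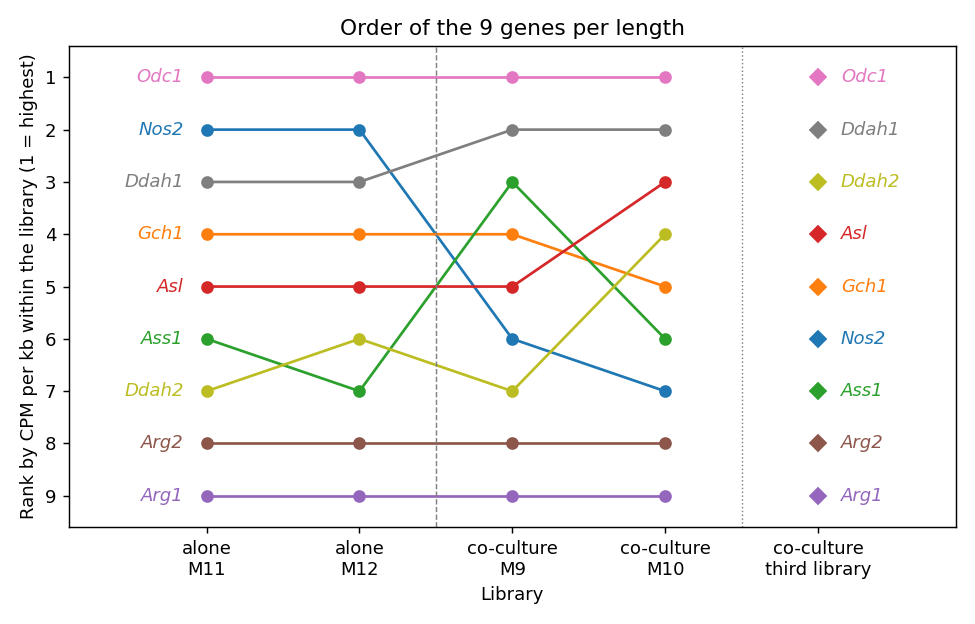
Rank of the 9 genes by CPM per kilobase of exon within each library, 1 being the highest, with lines joining the 4 libraries of the shared table and diamonds for the third library. Nos2 goes from rank 2 in both libraries alone to ranks 6 and 7 in M9 and M10 and 6 in the third library, while Odc1 keeps rank 1.

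Between genes, levels were compared per length, as CPM per kilobase of annotated exon. Odc1 led in every library, at 175 and 204 alone, 158 in M9 and 95.1 in M10, with 64.6 in the third library. Nos2 came next in the organoids alone, at 48.6 and 39.8 CPM per kilobase, ahead of Ddah1 (28.9 and 30.4). In co-culture Ddah1 was in that place (41.2, 38.5 and 62.2), and Nos2, at 4.81 in M9 and 4.12 in M10, with 3.42 in the third library, lay below Gch1 and Asl in all 3. Nos2 and Ddah2 had almost the same level in M9 (4.81 and 4.31), so their order there is not resolved. Gch1 was above Asl in both libraries alone (13.8 and 17.8 against 10.1 and 9.6), and in co-culture their order differed between libraries. Ass1 and Ddah2 also exchanged places within groups, whereas Arg2 and Arg1 were at ranks 8 and 9 throughout. The authors' own FPKM (fragments scaled by transcript length and depth), used for the third library only, gave 6 of 9 genes the same rank there, and Nos2 (3.15 FPKM) again rank 6.

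Among 91 further genes of 8 lists around nitric oxide and arginine, 75 were tested, 2 fell and none rose by edgeR (14 at an unadjusted p under 0.05), a share near the 2.24% of all genes. The 2 genes were Slc7a2, which carries arginine into cells, and Il1r1, the receptor for interleukin-1. DESeq2 called 5 lower and 3 higher, and limma-voom 2 lower.

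Slc7a2 (ENSMUSG00000031596, chromosome 8, 40862396 to 40922308, plus strand), a cationic amino acid transporter known to be induced together with Nos2 in macrophages, was at 10.7 CPM in M11 and 18.5 in M12, and at 0.357, 0.493 and 0.476 in M9, M10 and the third library. All 3 co-culture libraries were far below both libraries alone. The fall was -5.09 ± 0.46 (log2, SE; adjusted p = 0.0148, edgeR), and the third library was at -4.74. The call was lost without M12 (-4.65, adjusted p = 0.0991) and with all 5 libraries (-5.03, adjusted p = 0.0806); over the 12 alternatives the call held in 10. Of the 9 transport genes tested, the other 8 did not pass, and the list's median was 0.15. Slc7a1, the widespread arginine importer, was more abundant (200 and 247 CPM alone; 189, 215 and 172 in co-culture), and its groups overlapped (-0.15 ± 0.17, adjusted p = 0.733). Slc7a7, a subunit of an arginine exporter, was at 21.7 and 16.1 CPM alone, against 40.6, 64.0 and 24.0 in co-culture (1.47 ± 0.28, adjusted p = 0.0685); DESeq2 called it, and so did edgeR without a low-count filter, without M9 and without M10.

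Of 20 inducers and regulators of Nos2 tested, 1 fell, Il1r1, and 19 did not pass, with a median of -0.26. By edgeR 6 were at an unadjusted p under 0.05, against 2779 of 15899 genes, and 16 changes were negative and 4 positive. In all 3 co-culture libraries 6 of the 20 lay below both libraries alone and 0 above, against 17.1% and 15.1% of 14288 genes. These 6 include Nfkb1, Nfkbia and Cebpd, described below. Il1r1 (ENSMUSG00000026072, chromosome 1, 40225080 to 40317257, plus strand) was at 157 and 148 CPM alone, against 71.5 in M9 and 72.6 in M10, a change of -1.08 ± 0.14 (adjusted p = 0.0293, edgeR). In the third library it was at 359 CPM, above both libraries alone, and with all 5 libraries the change had the opposite sign (0.14, adjusted p = 0.962). The call was also lost without M11 (-1.04) and without M12 (-1.13). Of the cytokines known to induce Nos2, Il1b had 0 to 8 counts per library, Ifng had 0 in all 5, and Tnf was at 26.8 and 22.4 CPM alone, against 31.0, 18.1 and 18.6 in co-culture (0.00 ± 0.30, adjusted p = 1.0, edgeR). Nfkb1 and Nfkbia, a subunit and an inhibitor of NF-kB, and Cebpd, a factor of the acute phase, were lower than both libraries alone in all 3 co-culture libraries without passing in the fit of 4 libraries. Their fitted changes were -0.80 ± 0.24, -0.96 ± 0.33 and -1.10 ± 0.29 (adjusted p = 0.171, 0.218 and 0.137, edgeR). Other edgeR fits called some of them lower: Nfkb1 without a low-count filter and without M9, Nfkbia without M9, and Cebpd without a low-count filter and without M10. DESeq2 called Cebpd, Hif1a, Il1r1 and Tlr2, all lower.

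**Figure D4:**
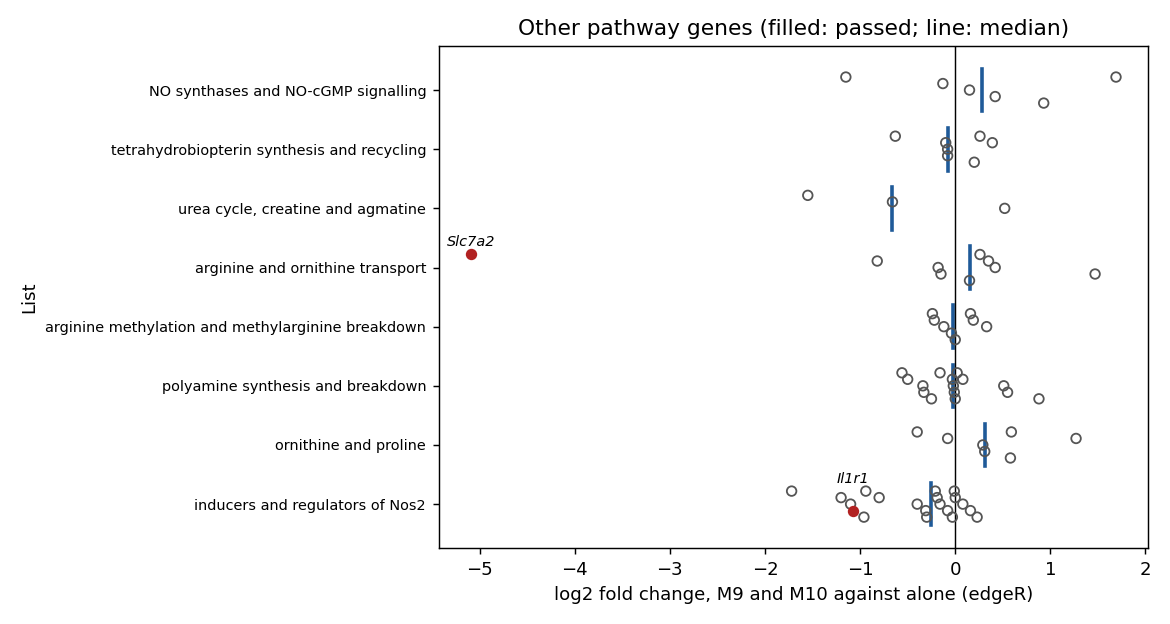
Log2 fold change of M9 and M10 against organoids alone (edgeR) for the tested genes of each of the 8 lists; filled points passed at an adjusted p under 0.05 and vertical lines are list medians. The 2 filled points are Slc7a2 (-5.09) and Il1r1 (-1.08).

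Genes were also ranked by how closely their profile over the 5 libraries followed that of Nos2, as the root mean square difference of log2 CPM after centring each gene on its own mean. Of 11504 genes whose log2 CPM averaged 1 or more, the 5 nearest were the ion channel gene Trpv4 (0.21), Tceal8 (0.33), the potassium channel gene Kcnt2 (0.33), the integrin subunit gene Itga5 (0.35) and Kctd12 (0.39), against a median of 1.72 over all. Trpv4 was at 53.1 and 49.0 CPM alone, against 4.28, 3.28 and 3.24 in co-culture. All 5 were lower in each co-culture library than in both libraries alone. With 5 libraries in 2 groups, this likeness follows the step between the groups and is a description.

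With only the 4 libraries of the shared table, the nearest were Crp (0.15), Aldh1l1, Peg3, Sting1 and Trpv4, so 1 of 5 genes was shared. In the third library, where Nos2 was at -3.68, Aldh1l1 was at -4.79 and Trpv4 at -3.96, whereas Crp was at -0.01 and Peg3 at 0.52; Sting1 was not joined, since the tables list it under different symbols.

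**Figure D5:**
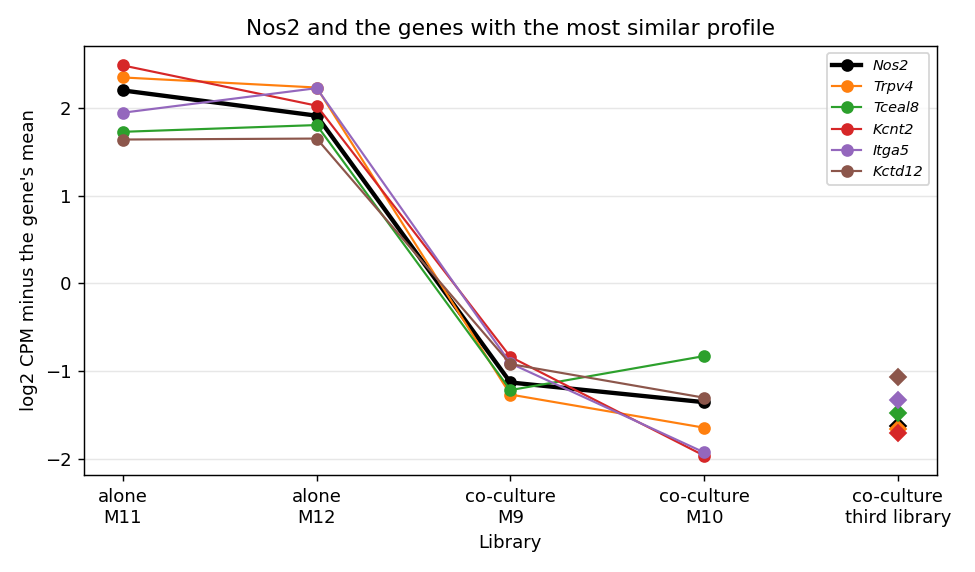
Log2 CPM of Nos2 and its 5 nearest genes in each library, each centred on its own mean; circles are the 4 libraries of the shared table, joined by lines, and diamonds the third library. All 6 profiles are above their mean in both libraries alone and below it in the 3 co-culture libraries.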

How the data were processed

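RNA extracted with the PicoPure kit was depleted of ribosomal RNA and sequenced from stranded libraries, per the labels' protocols. The submitters' processing notes list the tools HISAT2 2.1.0, StringTie 2.1.3b, Trimmomatic 0.38, Bowtie2 2.3.4.1 and FastQC 0.11.7, besides mm10 and GRCh37 as builds, with no roles; which counter, strand setting and annotation were used is not given in these sources. For 4 libraries the authors deposited a table of estimated counts per Ensembl gene, in which a column is named by group and library. For the third co-culture library they deposited FPKM and whole-number counts by RefSeq symbol, per the file headers, but its columns carry a library number that differs from the record, and the record was followed. FPKM of the 4 libraries were not used, so levels per length rest on counts and GENCODE exon lengths. Repeated rows (73925 for 52029 genes) were reduced to 1 per gene, and estimated counts were rounded. Joining the tables by unique symbol kept 30831 genes and 91.8% of the third library's counts.

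The 4 libraries were fitted in R 4.3.3 with edgeR 4.0.16 (TMM scaling, filterByExpr, robust quasi-likelihood test, Benjamini-Hochberg adjustment over 15899 genes, threshold 0.05). Standard errors were taken as |log2 fold change| / sqrt(F). CPM and third-library differences are TMM-scaled over 5 libraries, with prior count 2 for log2 values. The edgeR test was also run on simulated counts of 15899 genes, 200 of them changed, with 2 libraries in each group. The changed genes were drawn only from those with higher mean counts. Every gene was given the same spread between libraries (a common dispersion). It found 18% of the 2-fold changes and 94% of the 4-fold ones, and 10 of its 164 calls were false. Whether these shares hold for the real libraries, whose pairs differed unequally (chi-square per degree of freedom of 33.3 and 93.1), was not tested. Genes with low counts were not among the changed genes, so the shares do not cover them. The alternatives comprised 3 scalings, 2 other count filters, DESeq2 1.42.0, limma-voom (limma 3.58.1), fits that omit 1 library, and 1 fit of all 5. A left-out fit with 1 library in an arm assumes that it varies like the other group.

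Members, pathway lists and the naming rule were chosen with earlier results of these data known. The rule took all 9 members, up to 3 called genes of each pathway list by smallest p or else the 2 most abundant, and the 5 genes most like Nos2; Slc7a1, Slc7a7, Nfkb1, Nfkbia, Cebpd, Nos1, Nos3, Cps1, Otc, Il1b, Tnf and Ifng, and genes named only as called by an alternative, were added after their values were seen. Pycr3 is listed as Pycrl. Gene positions for all 9 members were looked up by Ensembl ID in GENCODE M21 (GRCm38). Counts per gene do not separate the coding from the untranslated parts of exons.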

Additional observations from a re-analysis of the deposited data

How the results depend on the processing

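Nos2 kept its direction in all 12 alternative fits, Gch1, Arg2 and Odc1 theirs (lower) and Ass1 and Ddah1 theirs (higher), while Asl and Ddah2 changed sign in some. The number of the 9 genes called, 1 with edgeR on 4 libraries, was 2 with DESeq2, 2 without a low-count filter (Ass1 added in both), and 0 to 3 when a library was left out (0 without M12, 3 without M9, 2 without M10). The number of other pathway genes called, 2, was 8 with DESeq2, 10 without a low-count filter, 0 with all 5 libraries, and 0 to 17 when a library was left out (17 without M9, 7 without M10, 1 without M11 and 0 without M12). Il1r1 changed sign with all 5 libraries (0.14). Over all genes, 356 calls became 1329 with DESeq2, 1404 without a low-count filter, 2 with all 5 libraries, and 0 to 2619 when a library was left out (2619 without M9, 1114 without M10, 50 without M11 and 0 without M12); the cause was not tested. Of the 5 genes most like Nos2, 1 stayed on the list with 4 libraries. In the third library, 7 of the 9 genes were below the organoids alone under TMM, upper quartile and total-count scaling and with prior count 0.5. These 7 include Arg1, which had 0 counts there and did not pass the filter. Under TMM the median difference over all genes compared was -0.02. The authors' FPKM of the third library, an alternative chosen after seeing the data, gave 6 of 9 genes the same rank there; the planned order by FPKM in all libraries is not given. No paired analysis was possible because the columns of the shared table carry library numbers, not the replicate numbers of the labels. With 2 libraries per group in 1 table, a gene that was not called is not shown to be equal between the groups.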
